A study of Mus musculus with 9 samples.

Results

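The Cyp2 genes encode family 2 of the cytochrome P450 enzymes. They were taken as every Ensembl feature of the deposited table whose symbol is Cyp2, a subfamily letter and a number, with pseudogenes left out, which gave 49 of 55414 features. The 49 genes fall into 13 subfamilies, with 15 genes in Cyp2c, 9 in Cyp2d, 8 in Cyp2j, 5 in Cyp2b, 4 in Cyp2a and 1 each in Cyp2e, Cyp2f, Cyp2g, Cyp2r, Cyp2s, Cyp2t, Cyp2u and Cyp2w. Their RNA was measured in liver of NSG mice, an immunodeficient strain without mature T, B and natural killer cells, whose genotype the labels give as WT. All 3 groups received tail vein injections over 5 weeks, and each has 3 RNA-seq libraries. What was injected was MCF-10A EV, MDA-MB-231 EV or, in the controls, phosphate-buffered saline (PBS). EVs are extracellular vesicles, membrane particles shed by cells; here their sources were MCF-10A, an immortal human mammary epithelial line that does not form tumours, or MDA-MB-231, derived from metastatic breast cancer. The sources used here give no sex, age or EV dose. The labels number the samples without saying that each came from its own mouse, so p-values cover the spread among these samples alone, which may be technical. The comparisons ask whether liver RNA differs after cancer cell EVs from that after EVs of the non-cancer line and after PBS.

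Cytochrome P450 enzymes are haem proteins of the endoplasmic reticulum that insert 1 oxygen atom into fatty acids, steroids, drugs and pollutants, with electrons delivered by the reductase Por. Family 2 is the largest P450 family of mouse liver, and its genes lie in tandem clusters of close copies. Many are transcribed through the receptors CAR (Nr1i3) and PXR (Nr1i2) and the hepatocyte factor Hnf4a, several are confined to hepatocytes around the central or the portal vein, and several differ between female and male liver under the control of growth hormone.

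Values are TPM, a transcript level corrected for transcript length and library size, so that levels of different genes can be set side by side. TPM keeps no read depth, so no counting interval could be given. Changes are differences of group means of log2(TPM + 1) with their standard error (SE), from limma fitted over all 9 libraries. The scale understates the change of genes at low TPM. A gene entered the fit at a mean of at least 1 TPM, which 12860 Ensembl genes and 35 of the 49 Cyp2 genes reached. Of the 35, Cyp2d12 and Cyp2j11 did so only through MDA-MB-231 EV and Cyp2u1 only through PBS, with means under 1 TPM over the other 6 libraries. The filter favoured the direction of their changes, and the counts and medians of tested members below include these 3 genes. A call required a Benjamini-Hochberg adjusted p under 0.05 over all 12860.

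Several libraries stood apart from their groups. MCF-10A EV 1 held 153849 TPM over 19 acute phase genes against 12490 to 46795 TPM in the other 8 libraries, and 5427 TPM over 9 neutrophil markers against 20.5 to 220 TPM. PBS 1 and MDA-MB-231 EV 3 had the long RNA Xist at 320.2 and 273 TPM against 7.11 to 74.9 TPM elsewhere, and mitochondrially encoded genes held 26.3% of the TPM of all features in PBS 1. Of the Y chromosome, Ddx3y, Eif2s3y, Kdm5d and Uty did not exceed 0.13 TPM in the 9 libraries, whereas Usp9y was at 7.43, 6.01 and 5.94 TPM after PBS, 2.46, 0 and 0 TPM after MCF-10A EV and 0, 0 and 1.03 TPM after MDA-MB-231 EV. In PBS 2, 6 fat markers summed to 335 TPM against 3.94 to 10.9 TPM in the other 8 libraries, and the part of this in the Cyp2 levels was not tested. All 8 hepatocyte markers were detected, at a sum of 63244 to 152217 TPM per library. In bulk liver RNA, fewer cells of a type and less RNA per cell cannot be told apart.

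Together the 49 Cyp2 genes held 0.537% (PBS 1) to 1.86% (MDA-MB-231 EV 1) of the TPM of a library's Ensembl features. Their summed level was 5210.4, 9101 and 8093 with PBS, 5422, 7360.3 and 7103 with MCF-10A EV and 18321, 12142 and 5084 with MDA-MB-231 EV (TPM). The group means were 7468 ± 2019 TPM (SD, n = 3), 6628 ± 1052 TPM (SD, n = 3) and 11849 ± 6623 TPM (SD, n = 3), and the 3 ranges overlapped. MDA-MB-231 EV 1 and 2 were the highest of the 9 libraries, while MDA-MB-231 EV 3 had the lowest sum. No Cyp2 gene changed between any 2 groups by the test, and the values below are therefore given as levels in each library.

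**Figure D1:**
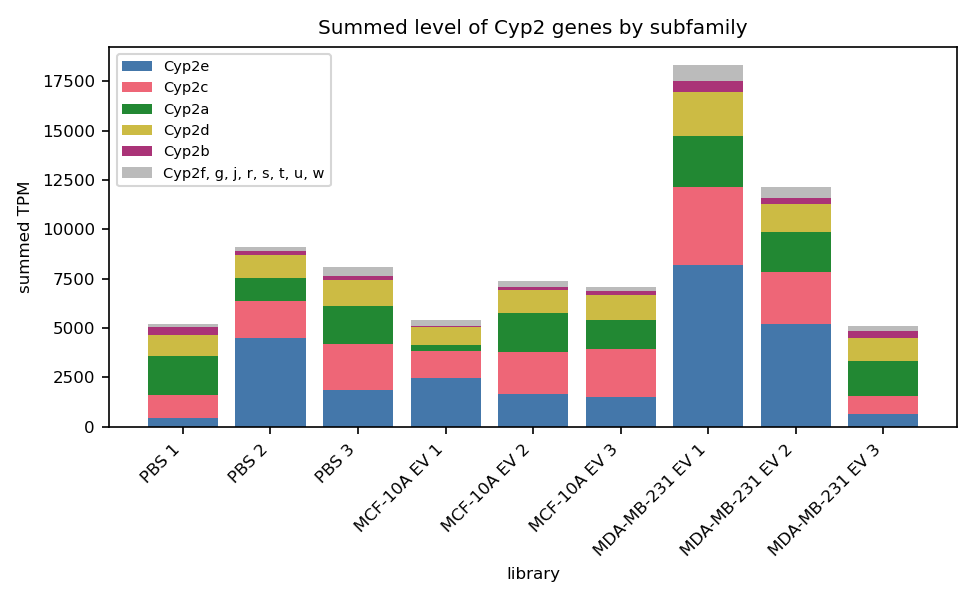
Summed TPM of the Cyp2 genes in each of the 9 liver libraries, stacked by subfamily (vertical axis, TPM). The Cyp2e segment, which is Cyp2e1 alone, runs from 442 TPM in PBS 1 to 8198 TPM in MDA-MB-231 EV 1, and the Cyp2a segment is smallest in MCF-10A EV 1, at 329 TPM.

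Cyp2e1, which oxidises ethanol, acetone and paracetamol and is found in pericentral hepatocytes, had the highest mean level of the family. It was at 442, 4501 and 1887 TPM after PBS, 2492, 1635 and 1482 TPM after MCF-10A EV and 8198, 5227 and 630.4 TPM after MDA-MB-231 EV. The MCF-10A EV libraries lay within 1482 to 2492 TPM, whereas the other 2 groups each held libraries below and above that range. Cyp2e1 accordingly made up 8.48%, 49.5% and 23.3% of the family's TPM with PBS, 46%, 22.2% and 20.9% with MCF-10A EV and 44.7%, 43.1% and 12.4% with MDA-MB-231 EV. Its log2 change after MDA-MB-231 EV relative to PBS was 0.95 ± 1.00 (SE; 95% interval -1.28 to 3.18), with 0.04 when PBS 1 was left out and 2.07 when MDA-MB-231 EV 3 was.

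The 2 libraries lowest in Cyp2e1 were low in some other members and high in others. Cyp2c29, a pericentral enzyme inducible through CAR, was at 19.2, 289.7 and 67.5 TPM after PBS, 146, 63.4 and 64.4 TPM after MCF-10A EV and 1037, 413 and 35.7 TPM after MDA-MB-231 EV. Cyp2f2, the periportal member, known for the bioactivation of naphthalene in lung, was at 81.8, 94.6 and 287 TPM after PBS, 180.3, 137 and 98.2 TPM after MCF-10A EV and 506, 405 and 93.1 TPM after MDA-MB-231 EV. Cyp2j5, an arachidonic acid epoxygenase of liver and kidney, was at 36.5, 93.8 and 125 TPM after PBS, 126, 121 and 79.8 TPM after MCF-10A EV and 235, 142 and 38.6 TPM after MDA-MB-231 EV. In all 3 genes PBS 1 was the lowest PBS library, MDA-MB-231 EV 3 the lowest MDA-MB-231 EV library and MDA-MB-231 EV 1 the highest of all 9. Cyp2e1 and Cyp2f2 mark opposite ends of the lobule, and their ratio was 5.4, 47.6 and 6.57 with PBS, 13.8, 12 and 15.1 with MCF-10A EV and 16.2, 12.9 and 6.77 with MDA-MB-231 EV, with PBS 2 apart from the other 8 libraries.

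Cyp2a22, Cyp2c67, Cyp2d12, Cyp2d13 and Cyp2j9 went the other way, with PBS 1 the highest PBS library and MDA-MB-231 EV 3 the highest MDA-MB-231 EV library. Within its group PBS 1 was the lowest library for 15 of the 35 tested members and the highest for 11, among them Cyp2a5, Cyp2b9, Cyp2b10 and Cyp2b13. MDA-MB-231 EV 3 was the lowest of its group for 20 and the highest for 6. Shares over all tested genes were not computed for these within-group counts, which describe the members alone.

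Over all 9 libraries PBS 1 was the single lowest for 6 of the 35 tested Cyp2 genes (17.1%), and for 19.3% of all tested genes. MDA-MB-231 EV 3 was the lowest for 7 (20.0%, against 7.30% of all tested genes) and the highest for 5 (14.3%, against 27.3%). MDA-MB-231 EV 1 was the highest for 19 (54.3%, against 26.9%). The part of Xist, of the mitochondrial share or of other properties of these libraries in the Cyp2 levels was not tested.

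**Figure D2:**
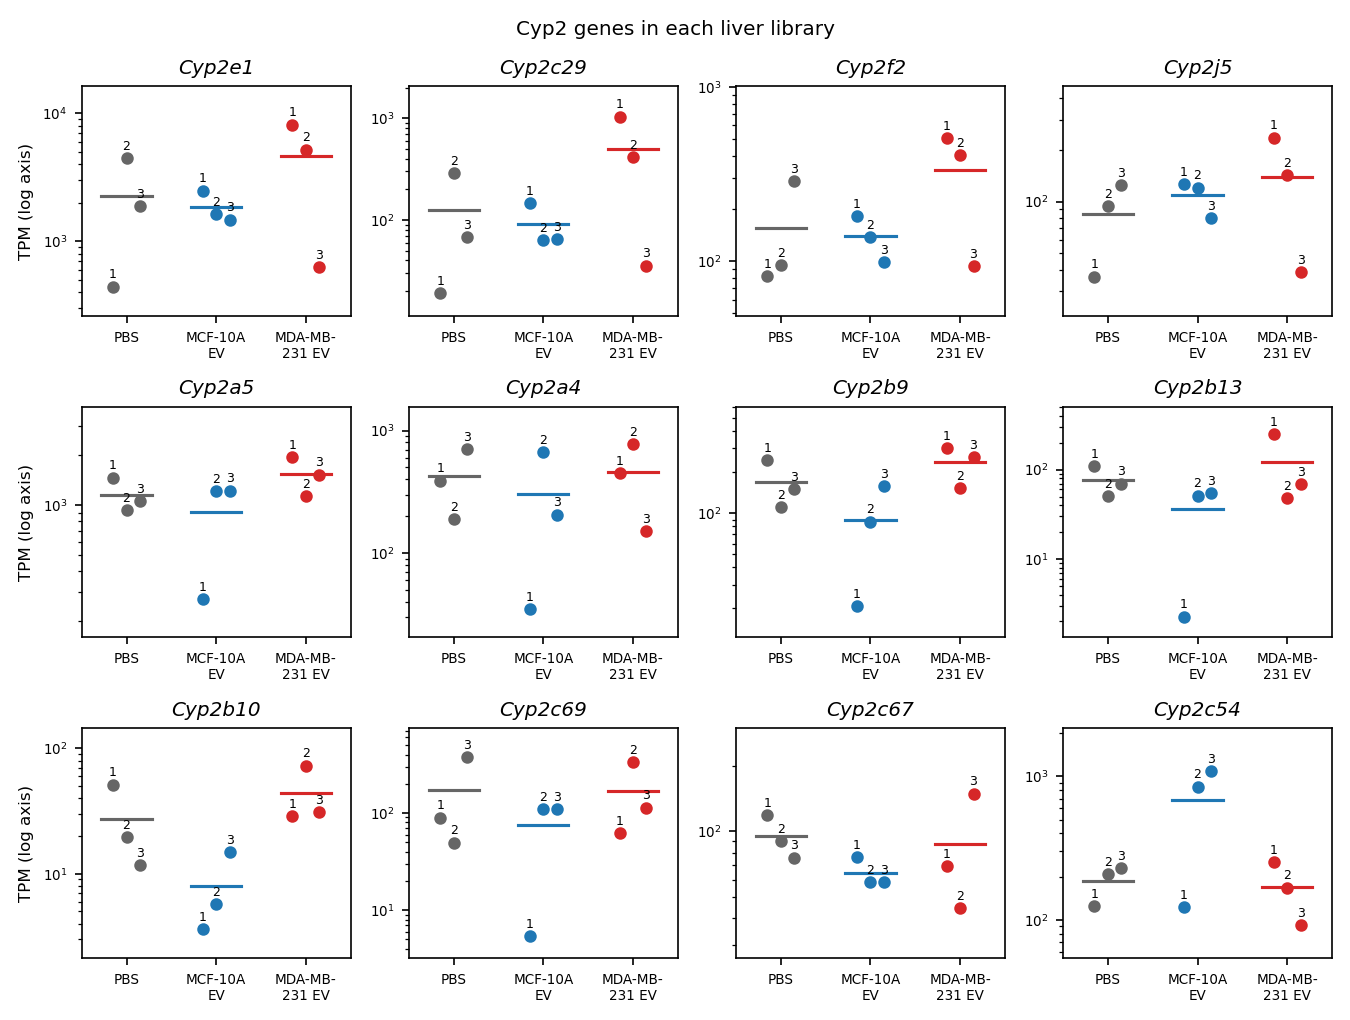
TPM (log axis) of 12 Cyp2 genes in each library, with horizontal lines at group means and digits giving the replicate number. PBS 1 and MDA-MB-231 EV 3 sit lowest in their groups for Cyp2e1, Cyp2c29, Cyp2f2 and Cyp2j5, MCF-10A EV 1 sits lowest of all 9 for Cyp2a5, Cyp2a4, Cyp2b9, Cyp2b13, Cyp2b10 and Cyp2c69, and MCF-10A EV 2 and 3 sit highest for Cyp2c54.

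The Cyp2a genes lie on chromosome 7 between 26307169 and 27037375 (GRCm38), in 1 block with Cyp2b, Cyp2f2, Cyp2g1, Cyp2s1 and Cyp2t4. Cyp2a5, the coumarin 7-hydroxylase of mouse liver, was second to Cyp2e1 in mean level and stood at 1465, 932 and 1055 TPM after PBS, 272, 1219 and 1223 TPM after MCF-10A EV and 1951, 1136 and 1526 TPM after MDA-MB-231 EV. MCF-10A EV 1 was the lowest library, and the other 8 lay between 932 and 1951 TPM. Its close copy Cyp2a4, a testosterone 15-alpha-hydroxylase higher in female liver, was at 390.1, 191 and 705 TPM after PBS, 35, 663 and 206 TPM after MCF-10A EV and 448, 778 and 152 TPM after MDA-MB-231 EV. Here too MCF-10A EV 1 was lowest, at 35.0 TPM, and the 3 groups overlapped. The ratio of Cyp2a4 to Cyp2a5 varied within every group: 0.266, 0.204 and 0.668 with PBS, 0.129, 0.544 and 0.169 with MCF-10A EV and 0.23, 0.684 and 0.0995 with MDA-MB-231 EV. Cyp2a22 was at 96.6, 45.6 and 67.3 TPM after PBS, 1.65, 77.5 and 24.1 TPM after MCF-10A EV and 107, 39.8 and 111 TPM after MDA-MB-231 EV, so that MCF-10A EV 1 lay more than 10-fold below every other library. Cyp2a12 was at 14.1 to 102 TPM over the 9 libraries.

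Cyp2a4 and Cyp2a5 are 98.5% identical over their 1485 coding bases, and their longest run of shared bases is 216. Reads from such runs cannot be placed by their sequence alone, so the split between the copies rests on the authors' quantification. A stretch of 60 coding bases with 4 differences (capitals), bases 596 to 655 counted from the start codon, shows how close the copies are.
Cyp2a4: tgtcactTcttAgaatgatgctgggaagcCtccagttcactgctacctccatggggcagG
Cyp2a5: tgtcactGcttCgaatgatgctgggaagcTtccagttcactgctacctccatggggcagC
These and the coding sequences below were taken from the GENCODE annotation of GRCm38, a build other than the authors' GRCm39.

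Cyp2b genes are the classic targets of CAR and respond to phenobarbital. Cyp2b10, the most inducible of them, was at 51.3, 19.5 and 11.7 TPM after PBS, 3.59, 5.71 and 14.8 TPM after MCF-10A EV and 29, 72.8 and 31.2 TPM after MDA-MB-231 EV. The lowest MDA-MB-231 EV library, at 29.0 TPM, was above the highest MCF-10A EV library, at 14.8 TPM, while PBS overlapped both. Cyp2b9, a form of female liver with the highest mean of the subfamily, was at 247, 111 and 149.6 TPM after PBS, 20.9, 86.7 and 159 TPM after MCF-10A EV and 302, 153 and 259 TPM after MDA-MB-231 EV. Cyp2b13, also female-biased, was at 110.2, 50.9 and 69.7 TPM after PBS, 2.26, 51.1 and 54.9 TPM after MCF-10A EV and 251, 48.1 and 69.1 TPM after MDA-MB-231 EV. Both were lowest in MCF-10A EV 1, and PBS overlapped MDA-MB-231 EV in both. Cyp2b19, a keratinocyte enzyme, reached 0.09 TPM at most, and Cyp2b23 was listed at 0 in every library. Nr1i3 itself, the receptor CAR, was at 311, 157 and 105 TPM after PBS, 61.8, 100.2 and 154 TPM after MCF-10A EV and 303, 97.8 and 1081 TPM after MDA-MB-231 EV, highest in MDA-MB-231 EV 3. A link between the Nr1i3 level and the Cyp2b levels was not tested.

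Cyp2c is the largest subfamily, with 15 genes on chromosome 19 between 39007019 and 44029208 (GRCm38), of which 12 were tested. Its members hydroxylate drugs and epoxidise arachidonic acid. Cyp2c54 had the highest mean of the subfamily because of 2 libraries: it was at 125, 208 and 229.9 TPM after PBS, 123, 851 and 1089 TPM after MCF-10A EV and 252, 167 and 91.5 TPM after MDA-MB-231 EV. MCF-10A EV 2 and 3 thus stood more than 3-fold above the highest of the other 7 libraries, and MCF-10A EV 1 did not. The neighbouring copy Cyp2c50 was at 90, 331 and 228 TPM after PBS, 99.4, 172 and 229.5 TPM after MCF-10A EV and 418, 262 and 58 TPM after MDA-MB-231 EV, so its MCF-10A EV values lay inside the PBS range. Cyp2c37, the third gene of this trio, was at 119, 294 and 233 TPM after PBS, 43.1, 214 and 311 TPM after MCF-10A EV and 657, 253 and 89.5 TPM after MDA-MB-231 EV. The ratio of Cyp2c54 to Cyp2c50 was 1.39, 0.628 and 1.01 with PBS, 1.24, 4.95 and 4.75 with MCF-10A EV and 0.603, 0.638 and 1.58 with MDA-MB-231 EV, and the summed level of Cyp2c37, Cyp2c50 and Cyp2c54 was 334, 832 and 691 with PBS, 265, 1237 and 1629.9 with MCF-10A EV and 1326, 683 and 239 with MDA-MB-231 EV (TPM). The sum was highest in MCF-10A EV 3, followed by MDA-MB-231 EV 1 and MCF-10A EV 2.

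Cyp2c50 and Cyp2c54 are 95.2% identical over 1473 coding bases, with a longest shared run of 198 bases. Their coding bases 791 to 850 hold 11 differences (capitals) and so belong to the stretches that tell the copies apart, which is why they are shown.
Cyp2c50: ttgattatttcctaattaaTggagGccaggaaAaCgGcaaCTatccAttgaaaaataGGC
Cyp2c54: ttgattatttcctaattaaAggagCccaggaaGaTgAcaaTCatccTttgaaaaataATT
Among the 29 tested genes compared with a paralog, 18 had a copy with over 90% identity and 10 a copy with over 95%, and differences between such copies are uncertain for this reason.

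Cyp2c39, a female-biased retinoic acid hydroxylase, was at 70.9, 182 and 172 TPM after PBS, 259, 147 and 162 TPM after MCF-10A EV and 523, 277 and 62 TPM after MDA-MB-231 EV. Cyp2c70, which hydroxylates chenodeoxycholic acid to the muricholic acids of mouse bile, was at 293, 150.3 and 276 TPM after PBS, 468, 163 and 166 TPM after MCF-10A EV and 492, 395 and 182 TPM after MDA-MB-231 EV. For both the top library was MDA-MB-231 EV 1, and MCF-10A EV 1 was the highest of its group. Cyp2c40, which oxidises arachidonic acid, was at 157, 141 and 452 TPM after PBS, 18.2, 252 and 154 TPM after MCF-10A EV and 176, 309 and 67.5 TPM after MDA-MB-231 EV. Cyp2c69, its female-biased neighbour, was at 89.4, 49.7 and 376 TPM after PBS, 5.42, 109 and 109 TPM after MCF-10A EV and 61.8, 333 and 114 TPM after MDA-MB-231 EV. Unlike Cyp2c39 and Cyp2c70, these 2 genes were lowest in MCF-10A EV 1 and highest in PBS 3. Cyp2c67, named after its values were seen because it is 97.7% identical to Cyp2c69, was at 119, 90.2 and 75.8 TPM after PBS, 76.3, 58.4 and 58.6 TPM after MCF-10A EV and 69, 44.4 and 149 TPM after MDA-MB-231 EV. Here MCF-10A EV 1 was the highest of its group, and the highest level was in MDA-MB-231 EV 3.

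The listed levels of Cyp2c67 and Cyp2c69 differed across libraries. This difference is uncertain, since their coding sequences share a run of 230 bases and the split of reads rests on the authors' quantification. Their promoters, 250 bases before to 50 bases after the annotated start, were 93.2% identical where they aligned. Any part of the promoters in the levels was not tested. RefSeq promoters (GRCm38.p6) were matched for 40 of the 49 genes, 28 of them tested. Both strands were searched for 4 motifs, with matches in capitals: TATAAA (the TATA box), CAAAGTCCA (HNF4A), the inverted repeat of HNF1 and TTCNNNGAA (STAT). Cyp2c67 (chr19:39648993-39649292, minus strand), Cyp2c69 (chr19:39886720-39887019, minus strand) and, for contrast, Cyp2e1 (chr7:140763569-140763868, plus strand) are shown.
Cyp2c67: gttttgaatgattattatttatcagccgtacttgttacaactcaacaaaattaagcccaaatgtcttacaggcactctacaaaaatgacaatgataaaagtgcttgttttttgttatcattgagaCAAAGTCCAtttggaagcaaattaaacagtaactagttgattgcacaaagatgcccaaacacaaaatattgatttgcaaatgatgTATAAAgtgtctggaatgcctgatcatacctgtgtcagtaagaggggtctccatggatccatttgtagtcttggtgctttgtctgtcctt
Cyp2c69: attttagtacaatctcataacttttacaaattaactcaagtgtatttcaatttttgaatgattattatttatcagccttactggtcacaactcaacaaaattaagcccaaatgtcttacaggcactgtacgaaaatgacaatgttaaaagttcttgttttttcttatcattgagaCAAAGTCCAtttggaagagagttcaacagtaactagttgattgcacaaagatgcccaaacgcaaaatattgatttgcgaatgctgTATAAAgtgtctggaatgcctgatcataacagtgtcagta
Cyp2e1: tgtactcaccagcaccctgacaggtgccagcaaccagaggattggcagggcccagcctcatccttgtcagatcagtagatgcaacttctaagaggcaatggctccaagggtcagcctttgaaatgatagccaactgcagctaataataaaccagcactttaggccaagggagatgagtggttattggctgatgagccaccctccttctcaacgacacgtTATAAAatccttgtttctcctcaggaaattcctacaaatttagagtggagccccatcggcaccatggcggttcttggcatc
The HNF4A letters begin 125 bases before the annotated start of Cyp2c67 and 75 bases before that of Cyp2c69. The TATA letters begin 40 bases before the start of Cyp2c67 but 11 bases after that of Cyp2c69. These distances thus depend on where the start is annotated. The HNF4A letters were found in 5 of the 28 tested genes, Cyp2c40, Cyp2c67, Cyp2c68, Cyp2c69 and Cyp2c70, and in 0.475% of 32851 promoters of the table. The first 4 of these promoters are near copies, 90.6% to 98.9% identical in pairs where they aligned, so their matches are not independent. The TATA letters were found in 17 of the 28 and in 13.6% of all promoters, 31 bases before the start in Cyp2e1. STAT letters were found in Cyp2j11 alone among the 28 (8.30% of all promoters), and HNF1 letters in none (0.00913%). A match of letters is a description and shows no binding.

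The remaining tested Cyp2c genes were Cyp2c23, an epoxygenase known from kidney, at 6.99 to 25.7 TPM, Cyp2c38 at 30.1 to 146 TPM and Cyp2c68 at 15.2 to 77.9 TPM. Cyp2c55, which CAR and PXR induce, stayed between 0.22 and 2.82 TPM and under the filter. Cyp2c65 and Cyp2c66, known from intestine, were listed at 0 throughout.

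Cyp2d genes, relatives of the human debrisoquine hydroxylase, form a cluster on chromosome 15 between 82370527 and 82794294 (GRCm38). Their summed level varied less than that of Cyp2e1: 1039.9, 1153 and 1327 with PBS, 918, 1167 and 1262 with MCF-10A EV and 2229, 1441 and 1144 with MDA-MB-231 EV (TPM). Cyp2d10, with the highest mean, was at 307, 452 and 473 TPM after PBS, 305, 518 and 515 TPM after MCF-10A EV and 894, 573 and 391 TPM after MDA-MB-231 EV. Cyp2d26 was at 219, 358 and 466 TPM after PBS, 376, 322 and 349 TPM after MCF-10A EV and 795, 609 and 314 TPM after MDA-MB-231 EV. Both were highest in MDA-MB-231 EV 1 and 2, but MDA-MB-231 EV 3 lay within the PBS range for each. Cyp2d9, a testosterone 16-alpha-hydroxylase of male liver, was at 61.6, 174 and 93.8 TPM after PBS, 109, 68.8 and 77.6 TPM after MCF-10A EV and 253, 74 and 95.2 TPM after MDA-MB-231 EV, again with overlapping groups. Cyp2d22 and Cyp2d40 ranged over 61.6 to 136 and 26.2 to 89.0 TPM, Cyp2d13 over 16.1 to 281 TPM and Cyp2d12 over 0.32 to 7.20 TPM. Cyp2d11 and Cyp2d34 did not exceed 0.41 and 0.61 TPM.

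Cyp2j genes on chromosome 4 make epoxides of arachidonic acid. Beside Cyp2j5, the broadly expressed Cyp2j6 was the steadiest tested member, at 12.5, 10.2 and 12.7 TPM after PBS, 15.6, 11.7 and 11.3 TPM after MCF-10A EV and 12.9, 11.8 and 20.4 TPM after MDA-MB-231 EV. Cyp2j9, known from brain, was the most variable, at 18.5, 3.38 and 1.41 TPM after PBS, 2.64, 1.24 and 5.4 TPM after MCF-10A EV and 5.63, 0.42 and 65.2 TPM after MDA-MB-231 EV, highest in MDA-MB-231 EV 3 and PBS 1. The within-group SD of log2(TPM + 1) was 0.28 for Cyp2j6 and 1.89 for Cyp2j9, with a median of 0.94 over the 35 tested members against 0.63 over all tested genes. Cyp2j11 was at 0, 0 and 1.38 TPM after PBS, 0, 3.06 and 0.36 TPM after MCF-10A EV and 5.38, 5.26 and 0 TPM after MDA-MB-231 EV, and listed at 0 in 4 libraries. Cyp2j8 reached 4.48 TPM in MCF-10A EV 3 and stayed under the filter with Cyp2j13, while Cyp2j7 and Cyp2j12 were listed at 0 throughout.

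The single-gene subfamilies were low apart from Cyp2e1 and Cyp2f2. Cyp2g1, best known from olfactory mucosa and also found in female liver, was at 4.05, 3.41 and 6.09 TPM after PBS, 4.23, 2.7 and 2.94 TPM after MCF-10A EV and 32.5, 4.82 and 11 TPM after MDA-MB-231 EV. All MDA-MB-231 EV libraries were above all MCF-10A EV libraries, by 4.82 to 4.23 TPM at the nearest, whereas PBS overlapped MDA-MB-231 EV. Cyp2r1, the vitamin D 25-hydroxylase, was at 1.95, 2.24 and 3.01 TPM after PBS, 5.64, 4.04 and 3.19 TPM after MCF-10A EV and 5.49, 3.38 and 1.5 TPM after MDA-MB-231 EV, with every MCF-10A EV library above every PBS library. Cyp2u1, a fatty acid hydroxylase, was at 1.66, 0.73 and 2.09 TPM after PBS, 0.68, 1.53 and 0.84 TPM after MCF-10A EV and 0.62, 1.07 and 0.87 TPM after MDA-MB-231 EV. Cyp2s1 and Cyp2t4 did not exceed 0.38 and 0.08 TPM, and Cyp2w1, an enzyme of fetal gut and of tumours, was listed at 0 throughout.

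**Figure D3:**
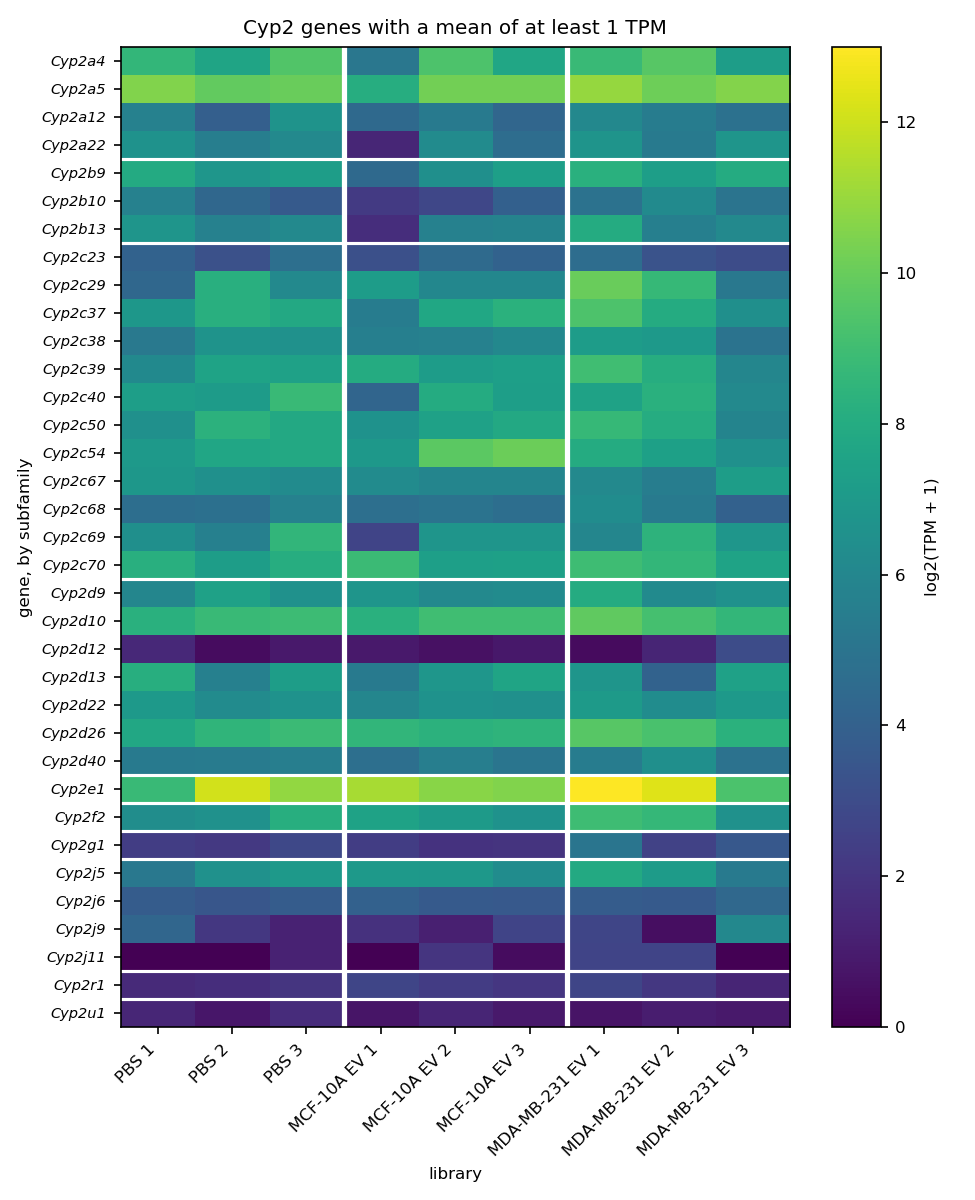
log2(TPM + 1) of the 35 Cyp2 genes that entered the fit (rows, ordered by subfamily) in the 9 libraries (columns, thick lines between groups). Dark cells in MCF-10A EV 1 include those of Cyp2a22, Cyp2b13 and Cyp2c69, at 1.65, 2.26 and 5.42 TPM. Other cells of this library are darker, among them Cyp2j11, Cyp2u1 and Cyp2d12, at 0, 0.68 and 0.86 TPM.

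MCF-10A EV 1 was the single lowest library for 12 of the 35 tested Cyp2 genes (34.3%), against 5.68% of all tested genes. These were Cyp2a4, Cyp2a5, Cyp2a22, Cyp2b9, Cyp2b10, Cyp2b13, Cyp2c37, Cyp2c40, Cyp2c69, Cyp2d10, Cyp2d22 and Cyp2d40. Of these, Cyp2a4, Cyp2a22, Cyp2b9, Cyp2b13, Cyp2c40 and Cyp2c69, chosen after their values were seen because their gaps were wide, summed to 1089.5, 589 and 1819 with PBS, 83.4, 1240.1 and 707 with MCF-10A EV and 1346, 1660.4 and 771 with MDA-MB-231 EV (TPM). The library was not low for the whole family, since Cyp2e1, Cyp2c39, Cyp2c70 and Cyp2f2 were each highest there within its group. The acute phase protein Saa1, chosen after its values were seen, stood at 28585 TPM in the same library against 21.0 to 1211 TPM in the others. Kupffer cell markers summed to 2169 TPM there against 319 to 876 TPM, and erythroid markers to 16022 TPM against 781 to 4172 TPM. The part of these in the Cyp2 levels was not tested.

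MDA-MB-231 EV against PBS called 0 of the 12860 genes (0%), so no Cyp2 gene. At an unadjusted p under 0.05 there were 199 genes and 1 Cyp2 gene. That gene was Cyp2g1, with a log2 change of 1.30 ± 0.57 (SE; 95% interval 0.03 to 2.56; limma adjusted p = 1). It was 0.63 without MDA-MB-231 EV 1 and 1.89 without MDA-MB-231 EV 2. Cyp2f2 and Cyp2d26 were at 1.03 ± 0.69 and 0.68 ± 0.46, and with single libraries left out at 0.57 (without MDA-MB-231 EV 1) to 1.78 and 0.38 (without PBS 1) to 1.06, both highest without MDA-MB-231 EV 3. Cyp2j11, at 1.36 ± 0.81, had the second smallest p of the members, but it entered the fit only through its MDA-MB-231 EV level, a mean of 3.55 TPM against 0.80 TPM over the other 6 libraries, so nothing is read from its change. Of the 35 tested members 28 had a change above 0, as did 69.7% of all tested genes, and 21 lay above the median of all genes. The members' median was 0.29 against 0.21 for all genes. At a mean of at least 5 TPM, which Cyp2d12, Cyp2j11 and Cyp2u1 did not reach, 25 of 31 members lay above 0. All genes then had 71.2% above 0, and the members' median was 0.29. No member had groups that did not overlap, against 5.23% of all genes higher and 0.801% lower. The intervals were wide: that of Cyp2a5, at 0.41 ± 0.59, was -0.91 to 1.73, and that of Cyp2c29, at 1.76 ± 1.20, was -0.89 to 4.42. The median was 0.01 without MDA-MB-231 EV 1, where 18 of 35 lay above 0, 0.66 without MDA-MB-231 EV 3, 0.56 without PBS 1 and MDA-MB-231 EV 3 together, and 0.09 after quantile normalization, where 20 lay above 0.

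The fit of MDA-MB-231 EV relative to MCF-10A EV called 28 genes (0.218%), none of them a Cyp2 gene, and 492 genes including 3 Cyp2 genes had an unadjusted p under 0.05. Cyp2b10 came first, with a log2 change of 2.40 ± 0.64 (SE; 95% interval 0.98 to 3.82; limma adjusted p = 0.564). It was 1.98 to 2.90 when single libraries were left out. Cyp2g1 at 1.65 ± 0.57 and Cyp2b9 at 1.77 ± 0.68 were the other 2, both with an adjusted p of 1. Cyp2g1 was at 0.98 without MDA-MB-231 EV 1 and 2.24 without MDA-MB-231 EV 2, and Cyp2b9 at 0.95 without MCF-10A EV 1. Cyp2a22 followed at 2.18 ± 1.01, with 0.83 when MCF-10A EV 1 was left out and 3.27 when MCF-10A EV 2 was. Cyp2b10 and Cyp2g1 were the 2 members (of 35) whose MDA-MB-231 EV libraries all exceeded the MCF-10A EV libraries, beside 4.73% of all genes, and no member was lower without overlap (1.8% of all genes). Changes above 0 were found in 30 of 35 members and in 65.0% of all genes, with medians of 0.61 and 0.17. At a mean of at least 5 TPM they were found in 28 of 31 members and 65.9% of all genes, with a members' median of 0.61. The members' median was lowest, at 0.33, when MDA-MB-231 EV 1 was left out and highest, at 1.02, when MDA-MB-231 EV 3 was. Without MCF-10A EV 1 it was 0.39 beside 0.33 for all genes, and 19 of 36 members lay above the median of all genes, in place of 29 of 35. With the replicate number as a block 15 genes were called, again no member, and Cyp2b10 had an adjusted p of 0.854 (0.275 to 1 over all 19 alternatives).

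MCF-10A EV against PBS called 25 genes (0.194%) and no Cyp2 gene, with 411 genes and 1 Cyp2 gene at an unadjusted p under 0.05. Cyp2b10 was that gene, at -1.60 ± 0.64 (SE; 95% interval -3.02 to -0.19; limma adjusted p = 1). Cyp2a22 at -1.96 ± 1.01, Cyp2c54 at 1.42 ± 0.76 and Cyp2b9 at -1.26 ± 0.68 followed. Without MCF-10A EV 1 Cyp2a22 was at -0.61 and Cyp2b9 at -0.44, and Cyp2b10 was at -1.04 without PBS 1. Cyp2a22 was at -3.05 without MCF-10A EV 2. Of the 35 members 12 had a change above 0, against 56.8% of all genes, and the medians were -0.27 and 0.07. At a mean of at least 5 TPM 10 of 31 members lay above 0, against 58.2% of all genes, with a members' median of -0.29. Cyp2r1 was the 1 member higher without overlap (2.95% of all genes), and none was lower without overlap (4.74%). Without MCF-10A EV 1 the median was -0.12 against -0.09 for all genes, and 14 of 36 members lay above 0. The 95% interval of Cyp2c54 was -0.28 to 3.11. Its change was 0.83 without MCF-10A EV 3. It was 2.40 without MCF-10A EV 1 (adjusted p = 0.313) and was called at 2.01 (adjusted p = 0.00585; 0.00585 to 1 over all 19 alternatives) when limma gave each library a weight by its residual spread, a setting that called 548 genes. The 3 comparisons share libraries, so their values are not independent of one another.

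**Figure D4:**
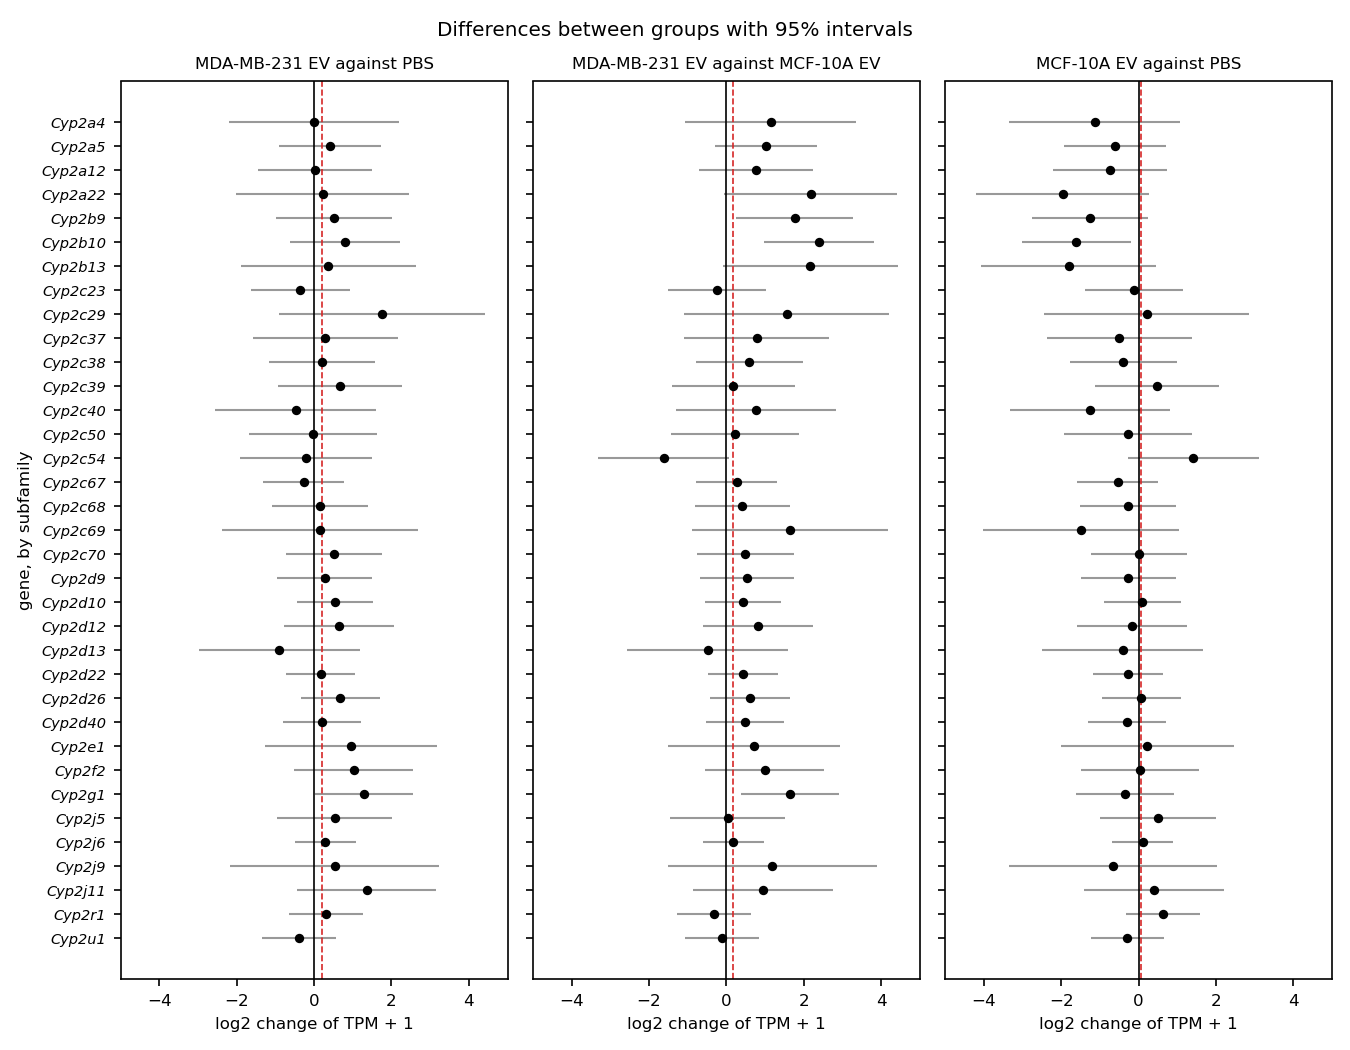
log2 change of TPM + 1 (points) with 95% intervals (lines) of the 35 tested Cyp2 genes in the 3 comparisons; the red dashed line is the median of all 12860 tested genes. Of the points, 30 of 35 lie right of 0 in the middle panel and 12 of 35 in the right panel, and every interval crosses 0 except those of Cyp2g1 (left and middle panels), Cyp2b9 (middle) and Cyp2b10 (middle and right).

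Grouped by what is known of them, the 6 pericentral members (Cyp2e1, Cyp2c29, Cyp2c37, Cyp2c50, Cyp2c54 and Cyp2a5) had median changes of 0.35 (MDA-MB-231 EV over PBS), 0.75 (MDA-MB-231 EV over MCF-10A EV) and -0.03 (MCF-10A EV over PBS). The 14 pericentral genes outside Cyp2 had -0.02, 0.36 and -0.0037, with 6, 10 and 7 of 14 above 0, and the 12 periportal genes outside Cyp2 had 0.36, 0.50 and -0.11. For 5 tested members inducible through CAR or PXR (Cyp2b10, Cyp2c29, Cyp2c37, Cyp2c50 and Cyp2a5) the medians were 0.41, 1.02 and -0.49. The 7 female-biased members (Cyp2a4, Cyp2b9, Cyp2b13, Cyp2c39, Cyp2c40, Cyp2c69 and Cyp2g1) had medians of 0.36, 1.65 and -1.25, with 6, 7 and 1 of 7 above 0. The male-biased list held 5 genes, of which Cyp2c44 was not found under that name. Other symbols for it were not searched, so it may be present under another one. The other 4 (Cyp2d9, Cyp2u1, Cyp2f2 and Cyp2c70) had medians of 0.39, 0.51 and -0.12. Over all tested genes the medians were 0.21, 0.17 and 0.07. Of the female-biased members, 5 of 7 were lowest in MCF-10A EV 1, where their level stands beside the acute phase and neutrophil values given above.

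No gene of 9 lists (P450 partners and haem synthesis, regulators, other P450 families, CAR and PXR targets, pericentral, periportal, acute phase, female-biased and male-biased genes) was called in any comparison by limma, and 0 to 4 genes of a list had an unadjusted p under 0.05. Por, which passes electrons to all of these enzymes, was at 127, 264 and 120.4 TPM after PBS, 222, 145 and 191 TPM after MCF-10A EV and 407, 435 and 257 TPM after MDA-MB-231 EV. Its MDA-MB-231 EV libraries all exceeded the MCF-10A EV libraries, as in 4.73% of all tested genes, and the change against PBS was 1.16 ± 0.44 (SE; limma adjusted p = 1). Alas1, the first enzyme of haem synthesis, was at 214, 276 and 200.3 TPM after PBS, 434, 174 and 299 TPM after MCF-10A EV and 854, 453 and 494 TPM after MDA-MB-231 EV, with MDA-MB-231 EV above PBS in every library and a change of 1.33 ± 0.45 (SE; limma adjusted p = 1). It was chosen after its values were seen, for the smallest p of its list in this comparison. Of all tested genes, 5.23% were also higher without overlap there. Over the 15 partner and haem genes 13, 10 and 12 lay above 0 (MDA-MB-231 EV over PBS, MDA-MB-231 EV over MCF-10A EV, MCF-10A EV over PBS), with medians of 0.25, 0.14 and 0.21. Nr1i2, the receptor PXR, was at 46.1, 27.2 and 28.1 TPM after PBS, 27.1, 27.9 and 34.3 TPM after MCF-10A EV and 59.6, 28.6 and 62.9 TPM after MDA-MB-231 EV, with overlapping groups, and 16, 17 and 9 of 20 regulators lay above 0 in the same order, with medians of 0.48, 0.58 and -0.01. P450 genes of other families had 20, 22 and 8 of 27 tested genes above 0, with medians of 0.30, 0.59 and -0.23. CAR and PXR targets outside Cyp2 had 19, 15 and 14 of 22 above 0, with medians of 0.40, 0.28 and 0.18. All 19 acute phase genes lay above 0 after MCF-10A EV relative to PBS, against 56.8% of all genes, with a median of 1.35 and 4 at an unadjusted p under 0.05. Their sum was 153849, 31045 and 46795 TPM after MCF-10A EV against 12490 to 32130 TPM after PBS, so MCF-10A EV 2 lay within the PBS range. In the 2 comparisons of MDA-MB-231 EV 15 and 4 of 19 acute phase genes lay above 0, with medians of 0.64 (over PBS) and -0.90 (over MCF-10A EV). Female-biased genes outside Cyp2 had medians of 0.66, 0.80 and -0.15 over 20 genes, and male-biased genes -0.39, 0.01 and -0.17 over 21.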

How the data were processed

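Per the labels' protocols, 1 µg of liver RNA entered each Illumina TruSeq library. The deposited values are TPM, which the authors computed; HISAT2, StringTie, RSEM and the build GRCm39 are named in the submitters' processing notes without versions. The table holds 61473 features. The 6059 loci assembled from reads were left out, since they are at 0 in every MCF-10A EV library. Over all features these libraries total 979351, 946777 and 934986 TPM. The other 6 libraries total about 1000000 TPM, with 12119 to 56965 TPM in assembled loci. A difference in processing thus cannot be told apart from the group in the 2 comparisons that hold MCF-10A EV. Rescaled over Ensembl features, the members' medians were 0.58 (MDA-MB-231 EV over MCF-10A EV) and -0.23 (MCF-10A EV over PBS). TPM + 1 was log2 transformed and fitted with limma 3.58.1 (R 4.3.3; trended prior variance, a mean per group, all 9 libraries, mean of at least 1 TPM), tested two-sided and adjusted by Benjamini-Hochberg per comparison; the fit was tested on simulated data. Samples were grouped by title and treatment label. Replicate numbers were checked for pairing by correlating deviations from group means. Between the 2 EV groups, same-numbered libraries gave 0.34, 0.11 and 0.44 and differently numbered ones -0.34 to 0.12. Same-numbered libraries gave -0.28, 0.50 and -0.39 between PBS and MDA-MB-231 EV and -0.21, -0.09 and -0.16 between PBS and MCF-10A EV. The differently numbered PBS 1 and MDA-MB-231 EV 3 gave 0.62. Pairing is thus possible between the EV groups alone and is not settled. The main fit left it out, and the replicate block covered all 9 libraries, PBS included. Nothing in the labels says what the number marks.

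Members given in every library are called genes, the highest-mean gene of each subfamily, the 4 smallest p of each comparison and the tested members of fixed groups; outside Cyp2, Por, Nr1i3, Nr1i2 and at most 2 genes per list with the smallest p. Saa1, Xist and the Y chromosome genes lie outside this rule and were given to describe the libraries. Members and lists were chosen with earlier results of these data known. Coding sequences were built from GENCODE annotation (GRCm38), which places 48 of the 49 genes, and aligned with Biopython 1.88; promoters came from RefSeq. The 19 alternatives were another pseudocount, 2 other filters, 3 scalings, array weights, the compared groups alone, the replicate block, each library left out, and PBS 1 with MDA-MB-231 EV 3 left out.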

Additional observations from a re-analysis of the deposited data

How the results depend on the processing

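Comparing MDA-MB-231 EV with PBS or with MCF-10A EV, no Cyp2 gene was called under any of the 19 alternatives, and 0 were called in each comparison when single libraries were left out. In MCF-10A EV against PBS 1 was called with array weights, Cyp2c54. With the replicate block 0 members were called in each comparison. Leave-one-out medians of the members ran from 0.01 to 0.66, 0.33 to 1.02 and -0.36 to -0.12 in the order of the report. Relative to PBS, MDA-MB-231 EV changes ran from -0.55 to 0.18 for Cyp2c54 (above 0 without MDA-MB-231 EV 3), from -0.022 to 1.27 for Cyp2j5 and from -0.027 to 0.66 for Cyp2r1 (both below 0 without MDA-MB-231 EV 1); the cause was not tested. Of the 35 tested members 20, 14 and 19 changed sign under at least 1 alternative in the 3 comparisons.

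Calls over all genes moved more. Against PBS, MDA-MB-231 EV had 24 without PBS 1, 5 without MDA-MB-231 EV 3 and 28 without both, in place of 0. Against MCF-10A EV, 28 calls became 46 with array weights, 11 with no filter or with the 2 groups alone, 17 with a mean of at least 5 TPM, and 13 to 31 without single libraries. In MCF-10A EV against PBS 25 became 548 with array weights, 40 with a pseudocount of 0.1, 12 with no filter, 48 with the 2 groups alone, 85 without PBS 1 and MDA-MB-231 EV 3, and 14 to 59 without single libraries (lowest without MCF-10A EV 3, highest without MDA-MB-231 EV 3, with 54 without PBS 1). Quantile normalization moved the median of all genes in MDA-MB-231 EV against PBS from 0.21 to 0.035 and that against MCF-10A EV from 0.17 to -0.0023. The members' medians were then 0.09 (20 of 35 above 0) against PBS and 0.51 (27 of 35) against MCF-10A EV. In MCF-10A EV against PBS the members' median was -0.33, with 9 of 35 above 0. The members' direction in MDA-MB-231 EV against PBS is thus to be read beside the median of all genes.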

Other observations

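Of 23 Cyp2 pseudogenes in the table, named with the ending ps and outside the family as defined, 14 were listed at 0 in every library and 3 had a mean of at least 1 TPM. Cyp2d37-ps was at 117, 29.7 and 39.2 TPM with PBS, 20.5, 48.9 and 79.1 TPM with MCF-10A EV and 38.1, 6.96 and 130.4 TPM with MDA-MB-231 EV, values in the range of expressed members such as Cyp2d13. Cyp2d38-ps was at 22.8 TPM in MDA-MB-231 EV 1 and at most at 1.89 TPM in the other 8 libraries. Cyp2b27-ps was at 5.97 TPM in PBS 1 and 4.04 TPM in MDA-MB-231 EV 3, and at most at 1.00 TPM in the other 7. No hypothesis was tested on these values.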
